A study of Phormium tenax with 2 samples.

Results

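Glutathione is the main soluble thiol of plant cells and a buffer against reactive oxygen species. Glutathione S-transferases (GST) join it to reactive or foreign compounds, and gamma-glutamyl transpeptidases (GGT) cut the gamma-glutamyl bond that peptidases leave intact, so GGT begins the breakdown of glutathione and of its conjugates. In Arabidopsis, GGT proteins are known from the cell wall space and from the vacuole. The 5 unigenes described here are those that the study assigned to glutathione metabolism, 2 for GST (c66489.graph_c0 and c58202.graph_c0) and 3 for GGT (c66134.graph_c0, c66148.graph_c0 and c54014.graph_c0), out of 75265 unigenes in all. A unigene is a cluster of transcripts assembled from the reads without a genome, and stands in for a gene. The study chose these unigenes by their log2FC and FDR between the same libraries used here, so the levels and folds below are a description of the members, with no test. The enzyme names come from the study's annotation, since the tables carry identifiers only. GST class (phi, tau or another), position in a genome and sequence were not given in the sources used here.

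Leaf blades of Phormium tenax (New Zealand flax) aged 1 year were compared between a drought library, T01, from pots held at 25% of the soil's saturated water content, and a control library, T02, from pots held at 70%. The leaves were taken 10 days after the drought pots had dried to their target. Each library was 1 pool of RNA from 3 plants, so the spread between plants cannot be measured, and 17744093 reads were assigned to unigenes in the drought library against 18540664 in the control library. Reads are the deposited expected counts rounded to whole numbers. TPM is a level scaled for the length of the unigene, with the same total in both libraries, and is the scale on which different unigenes are compared here. The log2FC is the log2 ratio of drought over control reads, after edgeR's TMM scaling and the addition of 1 read to each side. All intervals are exact 95% intervals of read counting (Poisson for levels, Clopper-Pearson for ratios and shares) and hold no variation between plants or PCR copies. In pooled leaf RNA, fewer cells of a type and less RNA per cell cannot be told apart. Leaf marker genes could not be checked because the tables name no genes.

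The GGT unigenes were all higher in the drought library, and the most abundant GST unigene was lower. Summed over the 3 GGT unigenes, the level was 1178.17 TPM in drought leaves and 13.20 TPM in control leaves. Summed over both GST unigenes, it was 26.92 TPM in drought leaves and 124.84 TPM in control leaves. The GGT sum was 43.8 times the GST sum in the drought library and 0.106 times in the control library. The sums hold only unigenes that the study listed as differing between these libraries, so other GST or GGT unigenes of the leaf are not in them. This ratio is taken within each library and does not depend on the scaling between libraries.

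**Figure D1:**
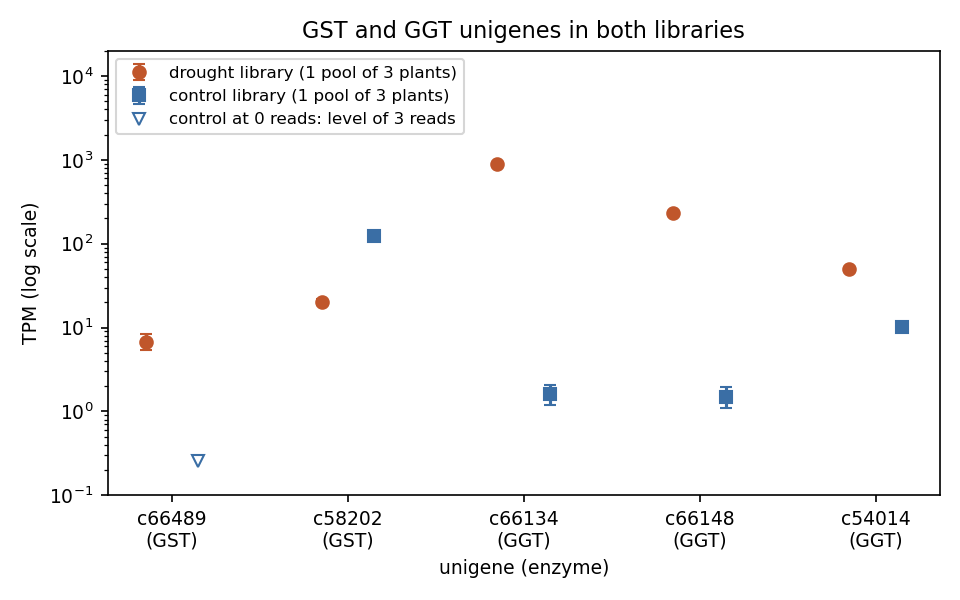
Level of each unigene (TPM, log scale) in the drought library (circles) and the control library (squares), with exact 95% Poisson intervals of the reads; the open triangle marks the level of 3 reads, 0.253 TPM, for the control library in which c66489 had 0 reads. The 3 GGT unigenes and c66489 lie higher in the drought library, and c58202 lies lower.

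Among the GGT unigenes, c66134.graph_c0 had the highest level in the drought library. Drought leaves gave 30775 reads of it and control leaves 54. Its level was 898.84 TPM (interval 888.8 to 908.9) in drought leaves and 1.60 TPM (interval 1.20 to 2.09) in control leaves. The log2FC was 8.91 (interval 8.55 to 9.34), and the 54 control reads set the width of the interval. Without the added read, the ratio of scaled reads was 488-fold. By TPM the unigene ranked 81st of 75265 in drought leaves and 33687th in control leaves, and it alone took 0.173% of the drought reads. Of the 81 unigenes at or above its drought level, only 3 had a control level under 10 TPM, and c66134.graph_c0 was among them. The others were c44124.graph_c0, at 1280.43 TPM in the drought library with 0 control reads, and c59199.graph_c0, at 1104.22 and 7.62 TPM, and c44124.graph_c0 was picked out after its values were seen. A higher log2FC than that of c66134.graph_c0 was found in 33 unigenes, each with at most 13 control reads. Of these, 20 had 0 control reads, so their log2FC, and with it the count of 33, depends on the added read.

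The GGT unigene c66148.graph_c0 had nearly the same control level and a lower drought level. Its reads numbered 7733 in drought leaves and 49 in control leaves, or 229.95 TPM (interval 224.9 to 235.1) and 1.48 TPM (interval 1.09 to 1.96). The log2FC was 7.05 (interval 6.67 to 7.51), and the ratio without the added read was 135-fold. It ranked 486th by TPM in drought leaves and 34936th in control leaves. Within the drought library c66134.graph_c0 was 3.91 times as abundant as c66148.graph_c0 (interval 3.81 to 4.01). Within the control library the ratio was 1.08 (interval 0.721 to 1.63), so the order of the pair in control leaves was not detectable at this depth. The ratio of drought to control reads was larger for c66134.graph_c0 than for c66148.graph_c0 by 1.85 on the log2 scale (interval 1.26 to 2.44), and the scaling between libraries cancels from this difference.

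The remaining GGT unigene, c54014.graph_c0, was the most abundant of the 3 in control leaves and had the smallest log2FC of them. Drought leaves gave 1615 reads of it and control leaves 329, at 49.38 TPM (interval 47.0 to 51.8) and 10.12 TPM (interval 9.06 to 11.3). The log2FC of 2.07 (interval 1.90 to 2.25) lies close to the study's limit of 2, and the interval includes that limit. With upper-quartile scaling it was 1.85, short of the limit. The ratio of drought to control reads was larger for c66134.graph_c0 than for c54014.graph_c0 by 6.86 on the log2 scale (interval 6.43 to 7.31), and for c66148.graph_c0 it was larger by 5.01 (interval 4.56 to 5.48).

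The leading one of the GGT unigenes that the study listed as differing therefore was not the same in the libraries. Of the summed GGT level, c66134.graph_c0 made up 76.3% in drought leaves and 12.1% in control leaves. The share of c66148.graph_c0 was 19.5% in drought leaves and 11.2% in control leaves. The share of c54014.graph_c0 was 4.19% in drought leaves and 76.7% in control leaves, although its own reads were higher in drought. Counted as reads, c54014.graph_c0 held 4.03% of the GGT reads in drought leaves (interval 3.83 to 4.22) and 76.2% in control leaves (interval 71.9 to 80.1). In drought leaves the order of levels was c66134.graph_c0, c66148.graph_c0 and c54014.graph_c0, with no overlap of their intervals.

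**Figure D2:**
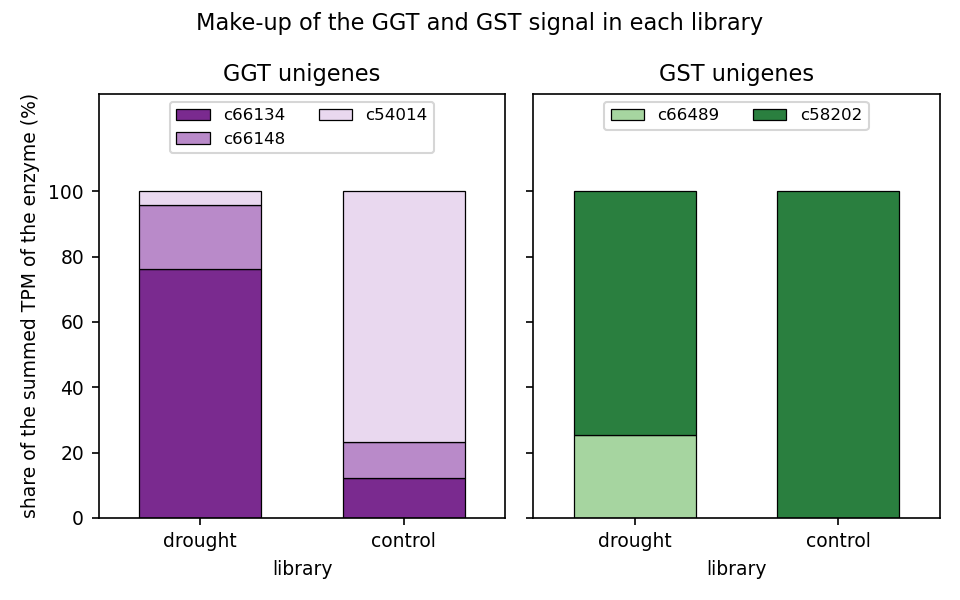
Share of the summed TPM of each enzyme (%) that each of its unigenes made up, with the drought library left of the control library in each panel. In the GGT panel c66134 makes up 76.3% in drought leaves and 12.1% in control leaves, and in the GST panel c66489 makes up 25.3% in drought leaves and none of the control level.

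The GST unigenes differed in direction. The unigene c58202.graph_c0 was counted at 544 reads in drought leaves and 3342 reads in control leaves. Its level was 20.11 TPM (interval 18.5 to 21.9) in drought leaves and 124.84 TPM (interval 121 to 129) in control leaves. The log2FC was -2.84 (interval -2.98 to -2.71), and without the added read it was 7.17-fold lower in drought leaves. It ranked 8944th by TPM in drought leaves and 1226th in control leaves, and among the 43 unigenes that the study listed by pathway it had the highest control level. In the control library it was 12.3 times as abundant as the leading one of the listed GGT unigenes, c54014.graph_c0.

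The other GST unigene, c66489.graph_c0, was detected in drought leaves only. It had 82 reads in the drought library, or 6.81 TPM (interval 5.42 to 8.45), and 0 reads in the control library, a count that allows up to 3 reads or 0.253 TPM. With that floor in place of 0 as a bound, drought leaves held 23.4-fold more of c66489.graph_c0 (4.55 on the log2 scale), taking the 82 reads as counted. From their lower counting limit of 65.2 reads it was 18.6-fold more, and both folds would be lower at 3.69 control reads. The computed log2FC of 6.26 is set by the pseudocount of 1 read, became 4.02 with 5 reads, and is no bound. Of the 14544 unigenes with at least 82 drought reads, 118 had 0 control reads. Among all 71410 unigenes with reads, at any depth, 20951 had 0 control reads. The drought library had reads of 60256 unigenes and the control library of 50459. In drought leaves c66489.graph_c0 was below c58202.graph_c0, which was 2.95 times as abundant there (interval 2.34 to 3.77). Both GST unigenes together were lower in drought leaves, as the summed GST reads had a log2FC of -2.64 (interval -2.77 to -2.52). For GGT the same sum had a log2FC of 6.31 (interval 6.18 to 6.45).

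Of the 5 members, 4 had a log2FC of at least 2 and 1 had a log2FC of -2 or less. Over the 71410 unigenes with reads, 27.6% were at least 4-fold higher and 17.5% at least 4-fold lower, many on a few reads. Among the 20284 unigenes with at least 50 reads in both libraries together, which include all 5 members, 8.46% were at least 4-fold higher and 5.56% at least 4-fold lower. Of the members, c66489.graph_c0 (0 control reads) and c66148.graph_c0 (49 control reads) reach 50 reads only with their drought reads. The median log2FC of the members was 6.26, or 4.55 with c66489.graph_c0 at its bound, beside 0.38 over all unigenes with reads and -0.04 over those with at least 50. Nothing is read from these counts, because the study picked the members by this same contrast.

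**Figure D3:**
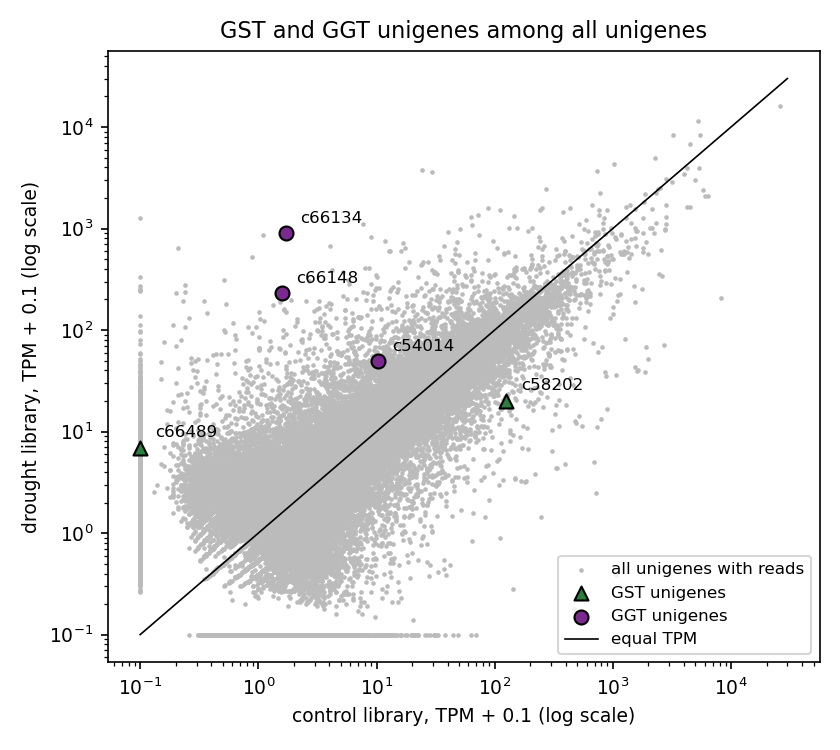
Drought level against control level (TPM + 0.1, log scales) of all unigenes with reads (grey), with the GST unigenes (triangles) and the GGT unigenes (circles) named and the line of equal TPM. The GGT unigenes c66134 and c66148 stand far above the line at 898.84 and 229.95 TPM in drought leaves, c54014 lies nearer to it, and c58202 lies below it.

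The direction of all 5 members was the same under each scaling tried, while the size moved. Before the read is added, log2 ratios differ from those under TMM by 0.29 with total reads, by -0.21 with upper-quartile factors and by -0.03 with DESeq2's factors. With the added read the log2FC of c66489.graph_c0 moved less, by 0.14, -0.11 and -0.02. These shifts are far smaller than the log2FC of c66134.graph_c0, c66148.graph_c0 and c58202.graph_c0, so the direction could not have turned. For c54014.graph_c0 they decide the side of the limit of 2, with 2.36 under total reads and 2.04 under DESeq2's factors.

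**Figure D4:**
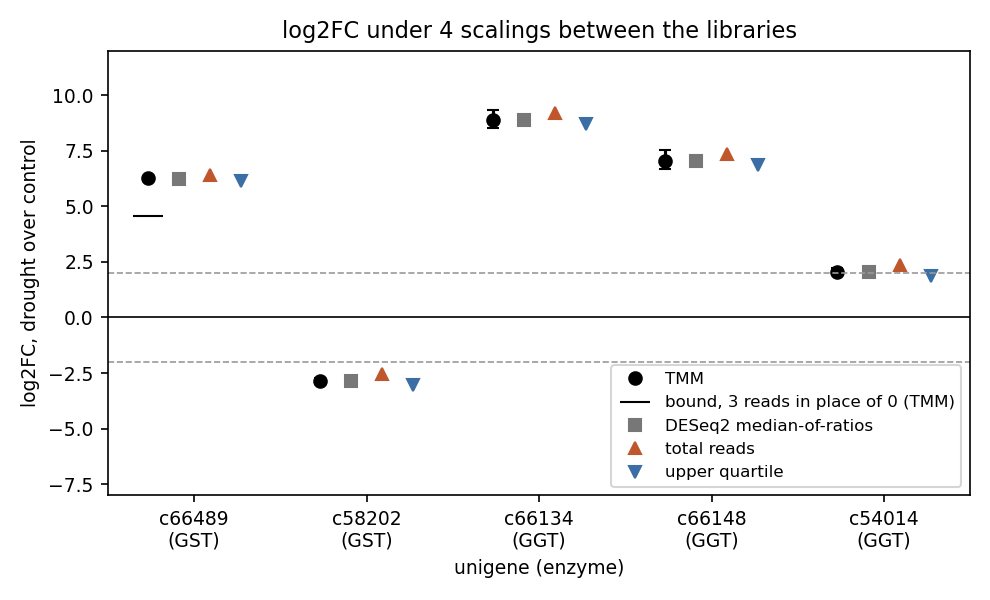
The log2FC of each unigene (drought over control) under 4 scalings, with the exact 95% interval of read counting for TMM, dashed lines at 2 and -2, and a bar for the bound of c66489. Only c54014 changes its side of a dashed line, at 1.85 with upper-quartile factors.

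Some properties that played no part in the choice could also be read from the tables. The GGT unigenes were of similar length, 2157 bp for c66134.graph_c0, 2120 bp for c66148.graph_c0 and 2064.5 bp (drought table) or 2084 bp (control table) for c54014.graph_c0. The GST unigenes differed more, with 808 bp for c66489.graph_c0 and 1719.87 or 1730.18 bp for c58202.graph_c0 in the drought and control tables. All 5 were the only unigene of their Trinity component, the group of overlapping contigs from which transcripts are built. The members with the highest log2FC values, c66134.graph_c0, c66148.graph_c0 and c66489.graph_c0, each consisted of 1 transcript, and c58202.graph_c0 and c54014.graph_c0 of 2. Among unigenes with at least 50 reads, 11.0% of the 5539 with 1 transcript were at least 4-fold higher in drought, beside 7.53% of the 14745 with several, and 7.62% and 4.79% were at least 4-fold lower. Both classes include members, which the study chose by this same contrast, so nothing is read from this comparison. Of the members with 1 transcript, c66148.graph_c0 and c66489.graph_c0 reach 50 reads only with their drought reads.

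The listed length of a unigene with several transcripts can differ between the libraries, and was read here as a mean weighted by the abundance of its transcripts. It was 19.5 bp shorter in the drought table for c54014.graph_c0 and 10.3 bp shorter for c58202.graph_c0. These differences were small, as 62.2% and 72.1% of the 11106 unigenes with several transcripts and at least 50 reads in each library differed by as much or more, with a median of 36.9 bp.

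The deposited estimates also bear on how reads were divided between unigenes. An expected count that is not whole (by more than 0.005) can arise where reads that match more than 1 unigene are shared out between them. This was so for c66134.graph_c0 (30774.59), c66148.graph_c0 (7732.99) and c54014.graph_c0 (1615.46) in the drought library and for c58202.graph_c0 (3341.52) in the control library. The other estimates of the members were whole, including the 54, 49 and 329 control reads of the GGT unigenes. A fraction was usual at high counts, with 87.9% of estimates of at least 1000 not whole in drought leaves and 87.6% in control leaves. Which unigenes shared these reads, and whether c66134.graph_c0 and c66148.graph_c0 shared any with each other, was not tested.

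The unigene nearest to each member was found by the distance in log2(TPM + 1) over the 2 libraries, among unigenes within 20% of its length and with at least 10 reads. For c66134.graph_c0 the nearest was c59199.graph_c0, at a distance of 1.75, and none lay within 0.5. For c66148.graph_c0 it was c60255.graph_c0 (176.99 TPM in drought leaves and 1.23 TPM in control leaves) at 0.41, the only one within 0.5. The pattern of c54014.graph_c0 was shared by 22 unigenes within 0.5, the nearest being c55950.graph_c0 (48.51 and 10.80 TPM in the drought and control libraries). For c58202.graph_c0 there were 4, the nearest being c59108.graph_c0 (18.12 and 134.96 TPM, in the same order). For c66489.graph_c0 there were 64, with c45727.graph_c0 (6.78 TPM in drought and 0 in control) the nearest. The tables name none of these, and the distance rests on only 2 values for each unigene. Candidates numbered 2182 for c66134.graph_c0, 2269 for c66148.graph_c0, 2402 for c54014.graph_c0, 3503 for c58202.graph_c0 and 6173 for c66489.graph_c0. The counts within 0.5 are therefore not compared between members.

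Peroxidases, which reduce hydrogen peroxide with phenolic donors, are the other antioxidant enzymes for which the study listed unigenes. That list was drawn up from peroxidase unigenes raised in these libraries, so the direction of its 4 members was fixed by the choice. All 4 had a log2FC of at least 2, a size that the study's own limit had also asked for. Of all unigenes with reads 27.6% reached it, and of those with at least 50 reads 8.46%. Another unigene, c38538.graph_c0, which was picked out with its values in view, is listed by the study beside peroxidase and a methyltransferase without being assigned to either, and had 0 drought reads and 19 control reads. The summed level of the 4 peroxidase unigenes, without c38538.graph_c0, was 222.92 TPM in drought leaves and 22.02 TPM in control leaves. The most abundant, c28269.graph_c0, stood at 148.96 TPM in drought leaves and 16.86 TPM in control leaves (log2FC 2.94, interval 2.79 to 3.10). The highest log2FC of the 4 was 4.05 (interval 3.30 to 5.18) in c63278.graph_c2, which had 230 drought reads and 11 control reads. For c57806.graph_c0 it was 3.56 (interval 3.17 to 4.03) and for c57081.graph_c1 it was 2.86 (interval 2.29 to 3.60). The intervals of c66134.graph_c0 and c66148.graph_c0 lie above those of all 4 peroxidase unigenes, and that of c54014.graph_c0 lies below them. The 43 unigenes listed by pathway were likewise chosen by the study as differing between these libraries, so large folds were fixed by the choice. Of these, 29 had a log2FC of at least 2 and 14 of -2 or less, beside 27.6% and 17.5% of all unigenes with reads. Within this list c66134.graph_c0 had the highest log2FC and the highest drought level, and c66148.graph_c0 was the third in both. No further unigene of glutathione metabolism was named in the sources used here, so enzymes of glutathione synthesis and reduction were not analysed here.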

How the data were processed

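RNA-seq of 1 pooled library per condition was analysed. Reads of both libraries were assembled together by the authors with Trinity. The deposited expected counts are the authors' estimates of reads per unigene, without normalization. The deposited TPM and FPKM values were derived by the authors from these counts, with effective length and sequencing depth taken into account. The submitters' processing notes name Bowtie 0.12.2, Cufflinks and the mouse build mm8, without roles, and mm8 cannot be the reference of a plant assembly. Neither the quantifier nor the unit counted, a read or a read pair, was stated in the sources used here.

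Expected counts were rounded to whole numbers. Scaling factors came from edgeR 4.0.16 (TMM, upper quartile) and DESeq2 1.42.0 in R 4.3.3. Intervals were computed with SciPy 1.17.1 in Python 3.11.15, at 95%, and cover counting error only. No model was fitted and no p-value computed, as there is no replicate and the study's own test (EBSeq) chose the members. The calculation of log2FC and its interval was checked on simulated counts with counting error only and known changes in a small part of the unigenes. The check did not cover a change in many unigenes or the bound of c66489.graph_c0.

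The members and lists were chosen with earlier results of these data known. Named unigenes are the members, others of the same Trinity component (0 were found), the nearest in TPM to each member, and 4 peroxidase unigenes. Outside this rule, c44124.graph_c0 and c38538.graph_c0 were named after their values were seen. Alternatives were other scalings, pseudocounts of 0.01 and 5 reads, TPM or FPKM with a pseudocount of 0.1, and minimum reads of 10 and 50 or a length of 300 bp for the background.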

Additional observations from a re-analysis of the deposited data

How the results depend on the processing

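No result changed direction under the 7 alternatives for the log2FC of the 5 members, and 20 of the 28 values of the 4 members with a counting interval stayed within it. The exceptions were as follows. The log2FC of c58202.graph_c0, -2.84 with TMM, was -2.55 with total reads, -3.05 with upper-quartile factors, -2.63 from TPM and -2.54 from FPKM. For c54014.graph_c0, 2.07 with TMM, these values were 2.36, 1.85, 2.28 and 2.36. For c66489.graph_c0, which has no such interval, a pseudocount of 5 reads gave 4.02, and 0.01 reads gave 12.9, since the control library had 0 reads. For c66134.graph_c0 the range was 8.69 to 9.19 and for c66148.graph_c0 6.84 to 7.34. The share of unigenes at least 4-fold higher, 27.6%, became 4.06% with 5 added reads, 17.7% with at least 10 reads, 8.46% with at least 50 reads and 17.0% for unigenes of at least 300 bp. The share at least 4-fold lower, 17.5%, became 2.48%, 8.50%, 5.56% and 9.43% under the same settings. No paired analysis was possible because each condition had 1 library, and for the same reason no library could be left out.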

Other observations

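The GGT and GST unigenes c66134.graph_c0, c66148.graph_c0 and c66489.graph_c0 carry component numbers in a stretch that was marked off by the transcript numbers of its unigenes. The stretch, which was set after the data were seen, begins at component number 66123, the first from which the unigenes with at least 50 reads include at most 1 with several transcripts up to the last number. Of its 190 unigenes with at least 50 reads, 189 (99.5%) had 1 transcript, beside 27.3% of all 20284 unigenes at that depth. The 99.5% was fixed by how the stretch was set, so no difference is read from it. Among those 189, 23.8% were at least 4-fold higher and 16.4% at least 4-fold lower in drought. The shares were 10.5% and 7.31% of the 5350 unigenes with 1 transcript and lower component numbers. The 189 include c66134.graph_c0, c66148.graph_c0 and c66489.graph_c0, which the study chose by this same contrast, so nothing is read from this comparison. Of these, c66148.graph_c0 and c66489.graph_c0 reach 50 reads only with their drought reads. The sources used here do not say how the numbers were assigned, and the part of the assembly in the high folds of c66134.graph_c0, c66148.graph_c0 and c66489.graph_c0 was not tested.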
